A study of Mus musculus with 2 samples.

Results

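Transcripts that cells make to copy their DNA and to divide were followed through the developing mouse esophagus, stomach and the gastroesophageal squamocolumnar junction (GE-SCJ) between them. The set was a list of 42 genes out of 19550 measured, namely 23 genes of mitosis, 14 genes of DNA replication, the 2 E-type cyclins Ccne1 and Ccne2, and the 3 D-type cyclins Ccnd1, Ccnd2 and Ccnd3. All 42 were detected, from 1102 unique molecular identifiers (UMIs, each standing for 1 captured transcript) for Cdc45 to 59362 UMIs for Ccnd2. The replication genes were summed apart from the mitosis genes throughout.

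Single cells of wild-type C57BL/6 mice came from embryonic day 15 (E15), embryonic day 19 (E19), pups at day 2 and adults at week 8, and no adult stomach group is analysed here. Animals of a stage were pooled, each region and stage carried 1 cell tag, and the tagged cells were sequenced as 1 pool, so each group below is 1 pooled sample, no test was run and no p-value is given. The 7808 cells held 107865155 UMIs, with a median of 10424.5 UMIs per cell and 143 to 1403 cells per region and stage. Cell labels were the deposited ones, and the 55 combinations of label, region and stage with at least 20 cells are described.

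A cell commits to division in G1, where D-type cyclins and then E-type cyclins activate their kinases and release E2F transcription factors. E2F then drives the genes of DNA replication: Cdc6 and Cdt1 load the Mcm2 to Mcm7 helicase onto DNA, Cdc45 and the GINS complex (Gins2) activate it, Pcna clamps the polymerase to DNA, and Rrm1, Rrm2 and Tyms supply nucleotides. Later, in G2 and mitosis, another set of genes is switched on for cyclin B and Cdk1, the spindle and its checkpoint, and the ubiquitin enzymes that end mitosis. In the gut tube, epithelium, stroma and muscle all grow before birth, and in the adult the epithelium is renewed by basal or gland progenitor cells.

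The promoters of the members were searched for short words tied to the early and the late set, and stretches of 6 of them are shown, 3 of mitosis genes and 3 of replication genes. Promoters were taken from RefSeq on GRCm38.p6 (250 bases before the start site to 50 after) and 33 of the 42 genes had one. Members were counted by gene, with a word in any promoter of the gene. The CCAAT word bound by the NF-Y factor stood on either strand in 16 of 19 mitosis genes and 9 of 12 replication genes, against 41.1% of all genes (37.4% of all 32851 promoters). TTTGAA or TTCGAA, the core of the CHR element of late cell cycle genes, stood in 15 of 19 mitosis genes and 3 of 12 replication genes, against 21.7% of all genes (19.2% of all promoters). Any of 4 E2F-type words (TTTGGCGC, TTTCCCGC, TTTCGCGC and TTTGGGCGC) stood in 1 of 19 mitosis genes (Cdk1) and in 6 of 12 replication genes (Cdc6, Cdt1, Mcm3, Mcm5, Mcm6 and Mcm7), against 2.23% of all genes (1.95% of all promoters). The stretches below are the 170 bases before the start site, 5′ to 3′ on the gene's strand, and capitals mark these words on either strand, joined where they overlap. Their positions are chr4:118437344-118437513, minus strand (Cdc20), chr19:37376212-37376381, plus strand (Kif11), chr2:164769759-164769928, plus strand (Ube2c), chr11:98907981-98908150, plus strand (Cdc6), chr8:75109339-75109508, plus strand (Mcm5), and chr1:128359706-128359875, minus strand (Mcm6).
Cdc20: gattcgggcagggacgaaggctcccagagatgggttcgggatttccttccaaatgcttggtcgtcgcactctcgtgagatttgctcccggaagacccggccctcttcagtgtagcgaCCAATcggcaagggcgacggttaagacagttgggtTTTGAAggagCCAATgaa
Kif11: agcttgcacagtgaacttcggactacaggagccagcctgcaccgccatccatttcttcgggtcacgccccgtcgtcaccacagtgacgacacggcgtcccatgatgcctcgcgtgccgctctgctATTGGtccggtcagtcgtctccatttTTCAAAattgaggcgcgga
Ube2c: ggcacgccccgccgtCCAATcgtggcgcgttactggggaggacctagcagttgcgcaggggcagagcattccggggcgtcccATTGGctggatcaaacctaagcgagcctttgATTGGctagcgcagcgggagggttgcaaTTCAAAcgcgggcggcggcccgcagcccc
Cdc6: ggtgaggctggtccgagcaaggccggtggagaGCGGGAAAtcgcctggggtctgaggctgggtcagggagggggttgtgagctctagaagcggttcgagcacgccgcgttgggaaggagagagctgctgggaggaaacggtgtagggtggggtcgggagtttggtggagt
Mcm5: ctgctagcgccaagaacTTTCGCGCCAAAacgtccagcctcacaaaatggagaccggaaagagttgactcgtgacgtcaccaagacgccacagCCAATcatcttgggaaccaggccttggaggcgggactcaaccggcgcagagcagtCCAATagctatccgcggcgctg
Mcm6: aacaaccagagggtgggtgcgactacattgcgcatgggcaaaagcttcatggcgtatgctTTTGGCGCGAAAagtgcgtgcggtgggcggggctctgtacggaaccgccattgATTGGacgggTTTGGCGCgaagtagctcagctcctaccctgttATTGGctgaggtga
A match describes the letters of the window and does not show that a factor binds there.

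The deposited cell labels were checked against marker genes before the members were compared. A class assigned from markers was the same as the label in 90.9% of cells. Squamous markers stood at 24269.5 counts-per-million (CPM, the UMIs of the genes scaled to a common total per group) in squamous cells and 115 CPM in columnar cells, and columnar markers at 13876 CPM in columnar cells. Fibroblast markers reached 26079.5 CPM in stromal cells and smooth muscle markers 36904 CPM in smooth muscle cells. Intervals given below are exact 95% intervals, Poisson for a CPM, conditional binomial for a ratio and Clopper-Pearson for a share of cells. Where 0 cells were positive, the limit given is 3 cells of the total. Intervals and limits cover counting error only, and they are too narrow where a few cells carry most UMIs, since UMIs of 1 cell are not independent. In summed RNA of a group, fewer dividing cells and less of the RNA per dividing cell cannot be told apart.

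Over all groups, the 23 mitosis genes together were high before birth and lower after it. At E15 their sum ran from 1375 to 4285 CPM with a median of 3059 CPM over 16 groups, and at E19 from 483 to 3266 CPM with a median of 2279 CPM over 19 groups. In pups it ran from 57.3 to 2272 CPM with a median of 459.5 CPM over 16 groups. The highest pup values were those of squamous cells and the lowest among the main labels those of stroma and muscle. The 14 replication genes had medians of 993, 798 and 229 CPM at the same stages. The 4 adult groups lay between 128 and 1943 CPM for mitosis and between 136 and 319 CPM for replication.

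**Figure D1:**
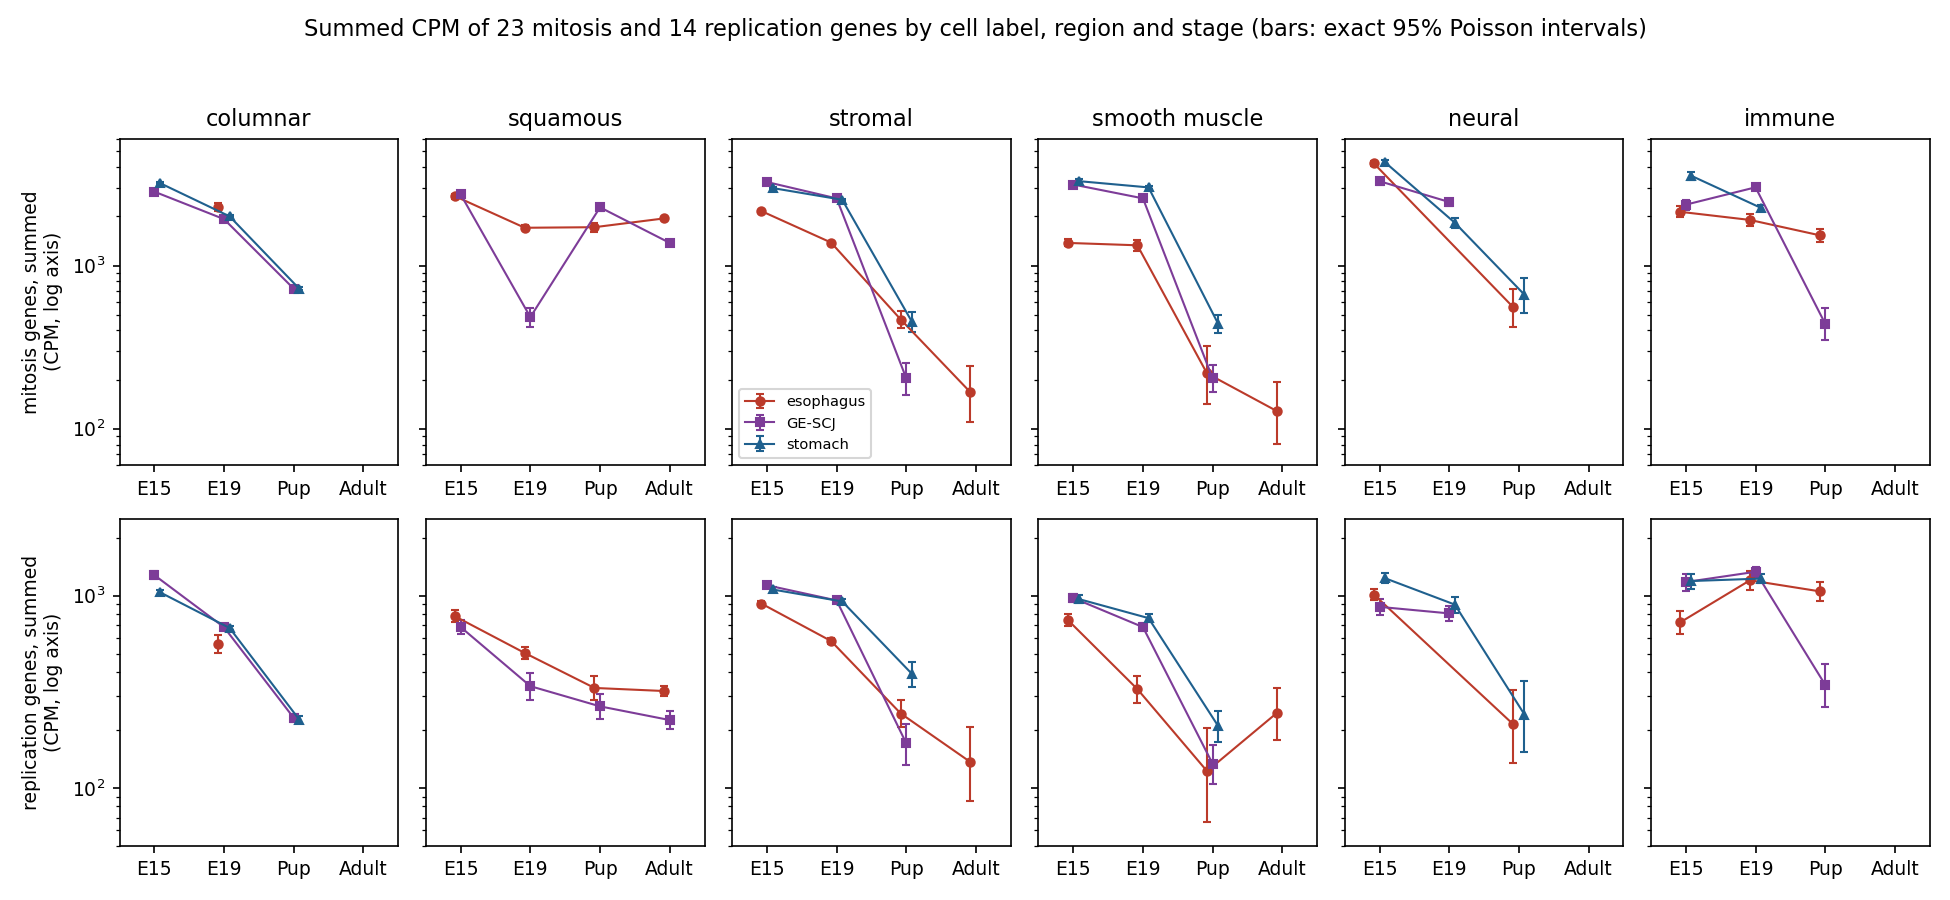
Summed CPM of the 23 mitosis genes (upper row) and the 14 replication genes (lower row) by stage, on log axes, for 6 cell labels, with 1 point per region and stage in the region's colour and bars for exact 95% Poisson intervals. In columnar, stromal, smooth muscle and neural cells the pup points lie far below the E15 points for both lists, whereas the squamous mitosis points of the esophagus stay between 1703 and 2657 CPM.

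Columnar epithelial cells of the stomach showed the stage difference with the most UMIs behind it. Their mitosis sum was 3199 CPM at E15 (140 cells), 1999.8 CPM at E19 (366 cells) and 719.9 CPM in pups (351 cells), a log2 ratio of E15 over pup of 2.15 (2.11 to 2.19). The GE-SCJ columnar cells gave 2834, 1923 and 720.6 CPM, a log2 ratio of 1.98 (1.92 to 2.03) over 53 and 291 cells. Both regions therefore had the same order of stages, and their pup values lay within counting error of each other (log2 ratio 0.00, -0.05 to 0.05). The replication sums were 1042, 679 and 226 CPM in the stomach and 1279.6, 685 and 231 CPM in the GE-SCJ, with log2 ratios of E15 over pup of 2.20 (2.13 to 2.28) and 2.47 (2.37 to 2.56). Part of the difference was there before birth, with E15 over E19 at 0.68 in the stomach and 0.56 in the GE-SCJ for mitosis, and E19 over pup at 1.47 and 1.42.

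Gene by gene, counts below use a fold of 2 for genes that had 100 UMIs or more in a comparison, both groups added. Members pass that minimum mostly through their E15 UMIs, so these counts describe the list and are read beside the share of all tested genes past the same fold. In stomach columnar cells 19% of all tested genes were at least 2-fold higher at E15 than in the pup, with a median log2 ratio over all tested genes of 0.36. Among the members that passed, 23 of 23 mitosis genes (median 2.19) and 13 of 13 replication genes (median 2.29) were past the fold, and Cdc45 did not reach 100 UMIs. In GE-SCJ columnar cells the share of all genes was 19.3%, and 21 of 21 mitosis genes and 12 of 12 replication genes that passed were past the fold. No member with at least 100 UMIs was 2-fold lower at E15 in any of the 14 comparisons of E15 with the pup. Of all tested genes, 8.97% were in stomach columnar cells, 97 of 2330 in esophageal squamous cells and 91 of 834 in esophageal immune cells. Members under the minimum did go lower, such as Rrm2 (-3.15) and Ccne1 (-2.61) in esophageal immune cells. The minimum, passed mostly through E15 UMIs, thus in part sets this count.

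Among the mitosis genes of stomach columnar cells, Bub1, Bub1b and Plk1 had the highest ratios, while Cdk1 and Ccnb1 lay near the list median of 2.19. Cdk1, the kinase that starts mitosis, stood at 143, 96.2 and 29.7 CPM at E15, E19 and in pups (log2 ratio of E15 over pup 2.27), and its partner Ccnb1 (cyclin B1) at 82.1, 55.4 and 17.9 CPM (2.20). Bub1, a kinase of the spindle checkpoint, had the highest log2 ratio at 3.06 (2.57 to 3.62), from 31.9 CPM at E15 to 16.9 and 3.77 CPM. Bub1b, another checkpoint kinase, followed at 2.47 and Plk1, the polo kinase of mitosis, at 2.46. Cdk1, Bub1, Bub1b and Plk1 each differed by more than 4-fold between E15 and the pup.

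The lowest ratios of the mitosis list in the same cells belonged to genes of several roles. Cenpa, the histone variant that marks centromeres, had the lowest log2 ratio of the list at 1.63 (1.45 to 1.80), followed by Ccnb2 (cyclin B2) at 1.67 and Mki67, the proliferation antigen Ki-67, at 1.78 (1.62 to 1.94). Mki67 stood at 181, 129 and 52.6 CPM, and Top2a, the topoisomerase that untangles sister DNA, at 296, 210.3 and 65.4 CPM (2.18). Stmn1 (stathmin), which destabilises microtubules and is also used outside mitosis, stood at 559, 287 and 126 CPM (2.15). Mki67, Top2a and Stmn1 were each lower at E19 than at E15 and lower again in the pup.

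The helicase loading factors of stomach columnar cells gave the highest and the lowest ratio of the replication list. Cdc6, which loads the helicase, went from 36.0 CPM at E15 through 17.1 to 2.89 CPM, a log2 ratio of 3.61 (3.08 to 4.23), while Cdt1, its partner in loading, had the lowest ratio of the list at 1.43 (1.04 to 1.81), from 28.7 to 10.7 CPM. The 2 loading factors therefore stood at opposite ends of the list, and their intervals did not overlap. The helicase subunits Mcm3 and Mcm4 had log2 ratios of 2.77 and 2.72, Mcm5 of 2.36, Mcm2 of 2.24 and Mcm6 of 2.13. Pcna, the polymerase clamp, stood at 171, 121 and 52.5 CPM (1.70, 1.54 to 1.86) and Rrm1 had a ratio of 2.04. Rrm2, the ribonucleotide reductase subunit, stood at 58.5, 36.1 and 12.9 CPM (2.18) and Tyms (thymidylate synthase) at 112, 75.0 and 21.4 CPM (2.39).

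Stromal cells, the fibroblasts of the wall, had similar fetal levels and lower pup levels. Their mitosis sums at E15, E19 and in pups were 2155, 1382 and 467 CPM in the esophagus, 3247, 2577 and 203 CPM in the GE-SCJ, and 2983, 2528 and 452 CPM in the stomach. Log2 ratios of E15 over pup were 2.20 (2.04 to 2.38), 3.98 (3.68 to 4.33) and 2.71 (2.52 to 2.93). The region with the lowest pup value, the GE-SCJ, was the one whose pup value did not rest on a single cell. In the pup, 1 cell held 61.4% of the mitosis UMIs of esophageal stroma and 1 cell held 69.8% of those of stomach stroma, and without that cell the sums were 186 and 143 CPM. In the GE-SCJ the leading cell held 15% and the sum without it was 175 CPM. When the 1% of cells with the most member UMIs were left out of each group, the log2 ratios became 3.4 in the esophagus and 4.17 in the stomach.

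Most of the stromal difference lay between E19 and the pup of day 2. E15 over E19 gave log2 ratios of 0.64, 0.33 and 0.24 in the esophagus, GE-SCJ and stomach, while E19 over pup gave 1.56, 3.65 and 2.48. Of all tested genes, 12%, 12.8% and 10.5% were at least 2-fold higher at E15 than in the pup in these regions. Of the mitosis genes that passed, 20 of 20, 23 of 23 and 23 of 23 were past the fold, and of the replication genes 11 of 12, 13 of 13 and 11 of 12. Replication sums at E15, E19 and in pups were 910.0, 581 and 244 CPM in the esophagus, 1134, 945 and 170.2 CPM in the GE-SCJ and 1078, 933 and 392 CPM in the stomach, where 1 pup cell held 47.4% of them (216 CPM without it).

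Single genes of the GE-SCJ stroma reached low values in the pup. Top2a stood at 363, 306 and 7.62 CPM in the order of the stages, Stmn1 at 722, 619 and 40.6 CPM, and Mki67 at 186, 145 and 10.2 CPM. In stomach stroma the pup sums were higher, but rested on the 1 cell described above, without which the mitosis sum was below that of the GE-SCJ. There Top2a stood at 361, 283 and 87.3 CPM, Stmn1 at 649, 631 and 107 CPM and Mki67 at 194, 129 and 76.1 CPM. Mki67 had the lowest mitosis ratio there (1.31), followed by Bub1 (1.52) and Kif11, the spindle motor (1.64). Among the highest were Cenpf, a centromere protein (4.06), and Ube2c, the ubiquitin enzyme of mitotic exit (3.78), while Bub1b had 162 UMIs at E15 and 0 in the pup. Pcna was the replication gene of the stomach stroma that missed the fold, at 210.3, 196 and 107 CPM (0.94, 0.55 to 1.42).

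Smooth muscle cells resembled the stroma. Their mitosis sums at E15, E19 and in pups were 3135, 2578 and 204 CPM in the GE-SCJ (131, 190 and 119 cells) and 3288, 3009 and 439 CPM in the stomach (111, 160 and 113 cells), with log2 ratios of E15 over pup of 3.93 (3.68 to 4.22) and 2.90 (2.72 to 3.10). In the stomach 1 pup cell held 49.0% of these UMIs, and the sum without it was 229 CPM. Stomach muscle at E15 and E19 lay close together (log2 ratio 0.13), so nearly all of the difference stood between E19 and the pup (2.77). In esophageal muscle the values were 1375, 1330 and 218 CPM, the last over only 22 cells. All tested genes past the fold made up 11.7% in the esophagus, 11.7% in the GE-SCJ and 12.5% in the stomach, against 3 of 3, 16 of 16 and 14 of 15 mitosis genes and 0 of 1, 8 of 8 and 7 of 7 replication genes that passed. In GE-SCJ muscle, Tpx2 had the highest mitosis ratio at 5.95. Birc5 (survivin, of the chromosomal passenger complex) had 5.22, from 130 to 1.76 CPM, and Top2a went from 304 through 287 to 15.8 CPM.

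Depth and marker levels moved with stage in these mesenchymal groups. Median UMIs per cell were 12171 and 13329 at E15 against 4418 and 4586 in the pup in GE-SCJ and stomach muscle, and from 9858 to 10573 against 3859 to 5072.5 in stroma. Fibroblast markers in the same muscle groups stood at 4065 and 3374 CPM at E15 and at 9336 and 10155 CPM in pups. CPM divides by depth, and the part of either difference in the member ratios was not tested.

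**Figure D2:**
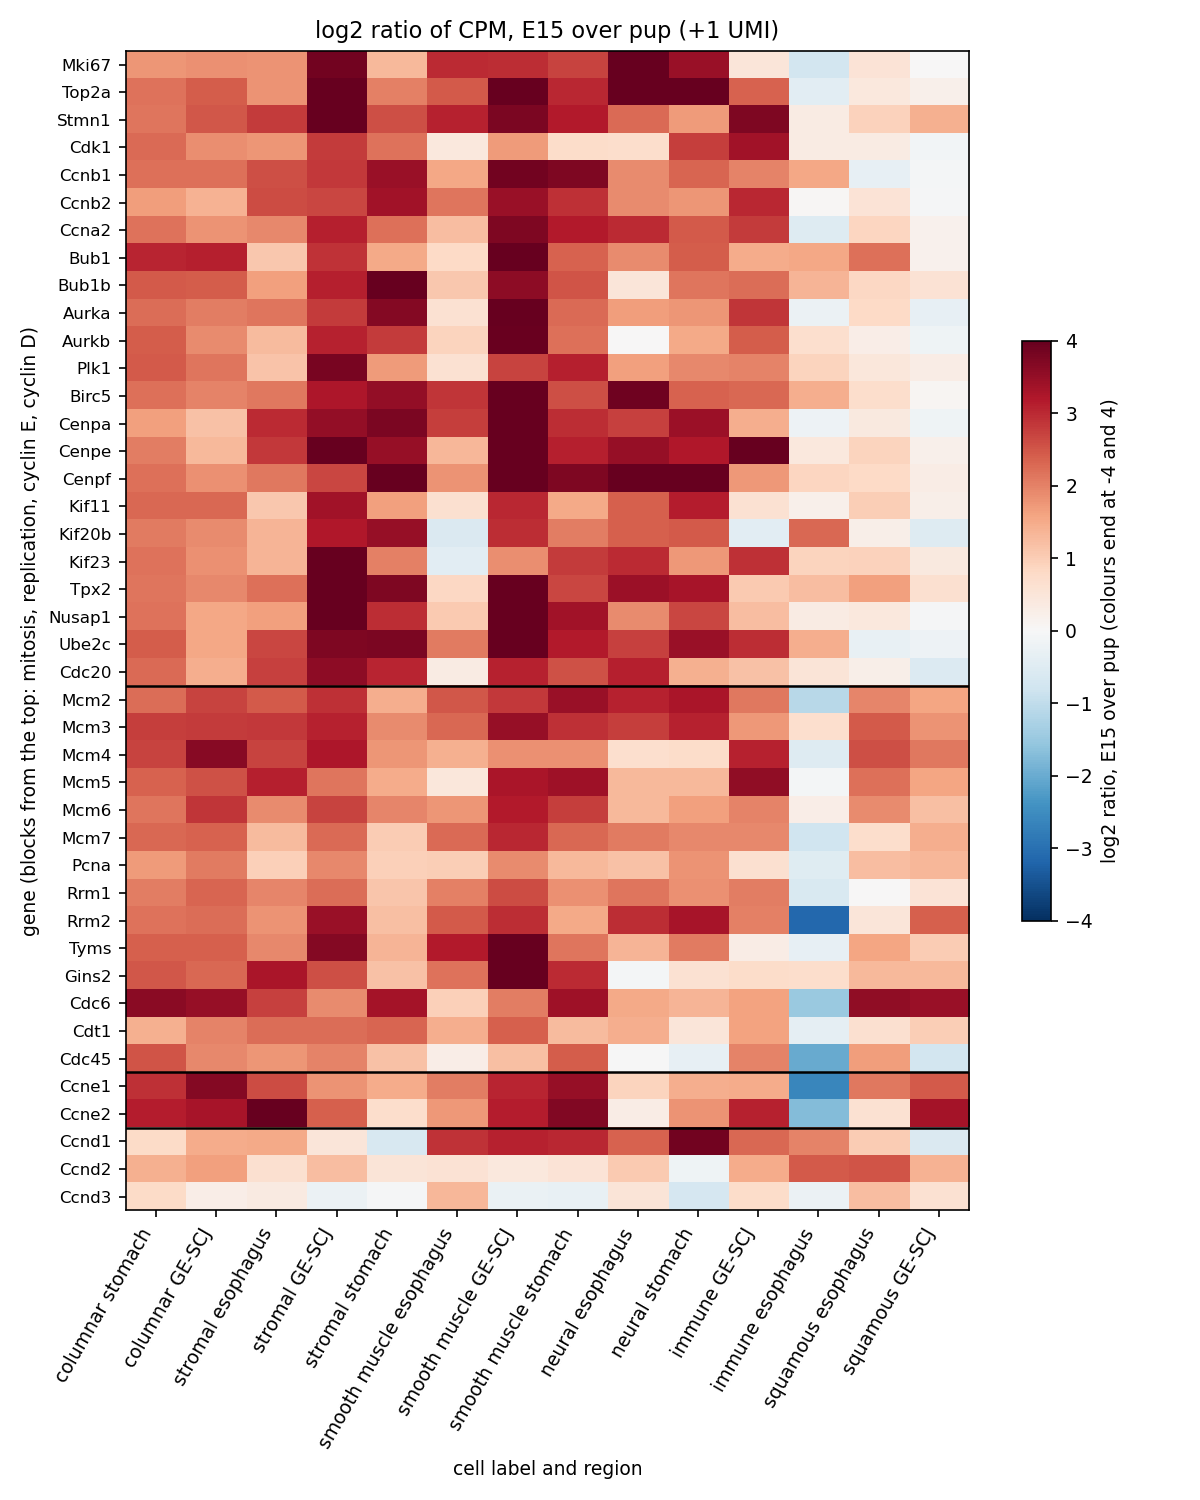
Log2 ratio of E15 over pup (1 UMI added to each count) for the 42 genes in rows and the 14 combinations of label and region in columns, with colours ending at -4 and 4. Genes under 100 UMIs are drawn too, and where the pup has 0 UMIs the value depends on the added UMI. Mitosis and replication rows lie mostly above 0 in columnar, stromal, smooth muscle and neural columns, and the mitosis rows are near 0 in the GE-SCJ squamous column.

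Neural cells of the esophagus and stomach had the highest mitosis sums of the E15 groups, at 4217 and 4285 CPM. Their pup sums were 554 and 662 CPM over 24 and 20 cells. GE-SCJ neural cells of E15 (42 cells) had 3284 CPM, below the 3543 CPM of stomach immune cells. Much of the sums of esophagus and stomach was Stmn1, which neurons use for microtubule dynamics. It stood at 1677 and 1758 CPM at E15 and at 340 and 531 CPM in pups. Mki67 had 165 UMIs in esophageal neural cells at E15 and 0 in the pup, and Top2a 315 and 0 UMIs. Among all tested genes 20.7% were past the fold in the esophagus and 18.7% in the stomach, against 7 of 8 and 10 of 10 mitosis genes and 3 of 3 and 4 of 4 replication genes that passed. Fibroblast markers in these neural groups stood at 1754 and 299 CPM at E15 and at 9999 and 8183 CPM in pups, and median UMIs per cell at 8480 and 12098.5 against 3898 and 4108, and their part was not tested.

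Across the 14 comparisons of E15 with the pup, the members differed in how steadily they were higher at E15. Stmn1 was higher at E15 in 14 of 14, with a median log2 ratio of 2.53, and Mki67 in 13 with a median of 1.81. Top2a had a median of 2.39, Cenpe, a kinetochore motor, 2.98 and Pcna 1.26. At the other end stood Ccnd3, higher in 8 of 14 (median 0.33), Cdc45 in 10 (1.44) and the kinesin gene Kif20b in 11. Most of the ratios below 0 were in GE-SCJ squamous cells and esophageal immune cells.

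Cells of the main squamous label did not follow the columnar, stromal, smooth muscle and neural labels. They were not alone, since immune cells of the esophagus had a mitosis ratio of E15 over pup of 0.48 (0.30 to 0.66). In those of the GE-SCJ it was 2.41. In esophageal squamous cells the mitosis sum was 2657 CPM at E15 (64 cells), 1703 CPM at E19 (120 cells), 1717 CPM in pups (56 cells) and 1943 CPM in the adult (232 cells). E15 over pup gave a log2 ratio of 0.63 (0.52 to 0.74) and E19 over pup -0.01 (-0.12 to 0.09). The sum of this squamous label in the esophagus thus stayed within a factor of 2 of its E15 level at each later stage. The stomach columnar sum of the pup was more than 4-fold below its own E15 level. A second squamous label of the pup esophagus, with 57.3 CPM over 29 cells, is not part of this squamous sum. Of the 56 pup cells that are, 100% had at least 1000 CPM of the fetal genes H19, Igf2, Dlk1 and Sox11 together. In GE-SCJ squamous cells the sums were 2727 CPM at E15 (47 cells), 2272 CPM in pups (44 cells) and 1376 CPM in the adult (86 cells), with E15 over pup at 0.26 (0.17 to 0.36). Single cells weighed on these values too: the leading cell held 30.9% of the esophageal pup sum (1236 CPM without it), 19.4% of the esophageal E15 sum (2219 CPM without it) and 23% of the GE-SCJ pup sum (1878 CPM without it), but only 5.03% of the esophageal adult sum.

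Among squamous mitosis genes, 1 of 12 that passed was past the fold in the esophagus, where 13.6% of all tested genes were, and 1 of 14 in the GE-SCJ, where 11.4% were. The first was Tpx2, which seeds spindle microtubules (96.7, 48.3, 29.8 and 65.4 CPM from E15 to adult, 1.63, 0.94 to 2.54), and the second Stmn1 (616, 160, 227 and 169.8 CPM, 1.43, 1.17 to 1.71). Mki67 gave 152, 141, 103 and 139 CPM in the esophagus (0.54, 0.11 to 1.01), and 185 CPM at E15 against 183 CPM in pups in the GE-SCJ (0.01, -0.33 to 0.36). Top2a stood at 290.1, 161, 214 and 199 CPM in the esophagus and at 259.9 and 224 CPM at E15 and in pups in the GE-SCJ. These pairs of E15 and pup values lay within a factor of 2 of each other.

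For some squamous mitosis genes the interval of the ratio held 0, or the pup value was above that of E15. In the esophagus Ccnb1 stood at 47.8, 48.9, 59.6 and 55.5 CPM from E15 to adult (-0.33, -0.98 to 0.37), Ube2c at 126, 115, 154 and 212 CPM (-0.29, -0.69 to 0.12), and Cdk1 at 93.6, 51.9, 73.6 and 76.0 CPM (0.33, -0.19 to 0.91). In the GE-SCJ Cdc20, the activator of the ubiquitin ligase that ends mitosis, stood at 68.6 CPM at E15 and 101 CPM in pups (-0.55, -1.08 to -0.03), Kif20b had a ratio of -0.50 and Aurka, the centrosome kinase, of -0.34. Of these 6 genes Cdc20 had an interval that left out 0.

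The GE-SCJ squamous cells of E19 stood apart, with a mitosis sum of 483 CPM over 30 cells, of which 1 cell held 43.6% (284 CPM without it). Ccnb1 and Cdc20 were at 2.13 CPM each, Ube2c at 12.8 CPM and Mki67 at 29.8 CPM in this group, while Plk1 had 0 UMIs. The group also carried 4090 CPM of columnar markers, the highest among squamous groups, beside 10344 CPM of squamous markers and 815 CPM of smooth muscle markers. Their part in its low mitosis sum was not tested.

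The replication genes of squamous cells did differ between E15 and the pup. Their sum was 781, 503, 331 and 319 CPM from E15 to adult in the esophagus and 687, 338, 265 and 225 CPM in the GE-SCJ, with log2 ratios of E15 over pup of 1.23 (1.01 to 1.48) and 1.37 (1.13 to 1.62). Adult over pup gave -0.06 (-0.28 to 0.18) and -0.24 (-0.50 to 0.03), intervals that hold 0. Summed mitosis CPM over summed replication CPM was 3.4, 3.38, 5.19 and 6.09 in esophageal squamous cells and 3.97, 1.43, 8.56 and 6.11 in those of the GE-SCJ. The same quotient was 3.07, 2.95 and 3.18 in stomach columnar cells and 2.21, 2.81 and 3.12 in GE-SCJ columnar cells, and in stroma it was 2.77 at E15 and 1.15 in the pup in the stomach and 2.86 and 1.19 in the GE-SCJ. The 4 highest quotients of all 55 groups were those of pup and adult cells of the main squamous label. The lowest, 0.354, was that of the second squamous label of the pup esophagus.

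Within the squamous replication list the genes differed in the size of their ratios. In the esophagus Mcm4 stood at 62.1, 37.4, 8.76 and 9.66 CPM (2.59, 1.52 to 4.5, 61 against 5 UMIs), Mcm3 at 46.8, 18.1, 7.01 and 16.2 CPM (2.45) and Mcm6 at 76.3, 60.3, 19.3 and 22.1 CPM (1.88, 1.07 to 3.05). Mcm2 had a ratio of 1.95, Mcm5 of 2.22 and Tyms of 1.56, while Cdc6 had 19 UMIs at E15 and 0 in the pup. Against these, the reductase genes Rrm1 (94.7 CPM at E15, 92.8 CPM in pups, 0.02, -0.47 to 0.54) and Rrm2 (33.6 and 22.8 CPM, 0.50) lay close to their E15 level, and Mcm7 had 0.71. Pcna went from 159.8 CPM through 91.1 to 66.6 CPM and stood at 84.1 CPM in the adult (1.24, 0.74 to 1.81).

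The GE-SCJ squamous cells showed most of the same replication genes lower in the pup. Mcm7 had 90.7 CPM at E15 and 32.0 CPM in pups (1.45, 0.80 to 2.27), Pcna 137 and 53.4 CPM (1.33, 0.81 to 1.95) and Mcm4 a ratio of 2.12 (1.06 to 3.84). Rrm2 here had 38.7 and 6.1 CPM (2.38, 1.18 to 4.62), unlike in the esophagus, and Rrm1 had 0.55 (-0.01 to 1.18). Only 2 of 14 replication genes in the esophagus and 3 of 14 in the GE-SCJ reached 100 UMIs, of which Pcna in the esophagus and Pcna and Mcm7 in the GE-SCJ were past the fold. Without a minimum of UMIs, 14 of 14 replication genes in the esophagus and 13 of 14 in the GE-SCJ had a ratio above 0, Cdc45 (-0.73) being the exception. Of all 19550 genes, 9890 in the esophagus and 9350 in the GE-SCJ did, and the medians of the tested ones were 0.41 and 0.33. At low counts the sign also depends on the added UMI, and genes without UMIs take it from the group totals alone.

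Between pup and adult the squamous mitosis sum went opposite ways in the 2 regions, with adult over pup at 0.18 (0.08 to 0.28) in the esophagus and -0.72 (-0.82 to -0.63) in the GE-SCJ. The fetal genes H19, Igf2, Dlk1 and Sox11 together reached at least 1000 CPM in 18.1% of adult and 100% of pup squamous cells of the esophagus and in 8.14% and 63.6% of those of the GE-SCJ, against 4.56% of stomach columnar cells of the pup. Without such adult cells the esophageal value was -0.12. It was also -0.12 with library sizes counted without genes of mitochondria, ribosomal proteins and hemoglobin, and the GE-SCJ value was 0.11 when each cell weighed equally. A second squamous label of the pup esophagus (29 cells) had 57.3 CPM of mitosis and 162 CPM of replication transcripts, and 45 of its 65 replication UMIs were Rrm1. Mki67 had 0 UMIs in it and Pcna 9.96 CPM.

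Immune cells had replication sums above 1000 CPM at E19 in every region. Immune cells of the esophagus had mitosis sums of 2133, 1902 and 1532 CPM at E15, E19 and in pups (26, 38 and 39 cells) and replication sums of 727, 1203 and 1054 CPM, so replication was higher in the pup than at E15 (log2 ratio of E15 over pup -0.53, -0.80 to -0.28). Rrm2 had 3 UMIs at E15 and 34 UMIs in the pup there, a gene named after its values were seen. A single E15 cell held 46.5% of the mitosis UMIs, and the mitosis ratio of E15 over pup, 0.48 (0.30 to 0.66), was -0.13 in the cells whose marker class was their label. In the GE-SCJ immune cells the mitosis sums were 2359, 3013 and 439.6 CPM and the replication sums 1178, 1332 and 344 CPM. Hemoglobin genes in these GE-SCJ immune groups summed to 35237, 21466 and 879 CPM, and their part was not tested. Past the fold at E15 were 4.8% of all tested genes in the esophagus and 7.77% in the GE-SCJ, against 0 of 3 and 2 of 3 mitosis and replication genes that passed. Endothelial cells, described at E19 only, had mitosis sums of 3266 CPM in the GE-SCJ and 3097 CPM in the stomach and replication sums of 1513 and 798 CPM.

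E-type cyclins followed the replication genes. Their sum had medians of 62.1, 45.8 and 6.98 CPM over the groups of E15, E19 and the pup. In stomach columnar cells Ccne1 stood at 30.0, 21.6 and 3.94 CPM (2.91, 2.42 to 3.46) and Ccne2 at 27.5, 17.0 and 3.06 CPM (3.14, 2.60 to 3.76). In esophageal stroma Ccne1 stood at 38.6, 23.4 and 4.78 CPM and had 0 UMIs in the adult, and Ccne2 at 44.4 and 32.1 CPM with 0 UMIs in pup and adult. In esophageal squamous cells Ccne1 went from 29.5 to 6.64, 5.25 and 4.99 CPM (E15 over pup 2.12, 0.80 to 4.85).

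D-type cyclins did not move as a unit. Over the 55 groups, Pearson's r of log2(CPM + 10) of the summed mitosis genes was 0.859 with the summed replication genes, 0.753 with cyclin E and 0.446 with cyclin D. The groups share 1 sequencing pool, and a stage or a label recurs among the 55 points, so these values are a description. Gene by gene, r with the rest of the mitosis list ran from 0.833 for Kif20b to 0.951 for Nusap1, whereas Ccnd1 had 0.658, Ccnd2 0.147 and Ccnd3 0.145. With the replication list the D-type cyclins had 0.649, 0.0555 and 0.201.

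Ccnd2 was the D-type cyclin with the clearest stage difference in epithelium. In esophageal squamous cells it stood at 1527, 722, 268 and 173 CPM from E15 to adult (E15 over pup 2.50, 2.27 to 2.76), in GE-SCJ squamous cells at 1002, 806, 384 and 71.0 CPM (1.38, 1.18 to 1.59) and in stomach columnar cells at 1215, 680.2 and 458 CPM (1.41, 1.35 to 1.47). Its squamous levels were lower at every later stage. The mitosis sum of esophageal squamous cells had a log2 ratio of adult over pup of 0.18, which changed sign under other ways of processing. In stomach stroma Ccnd2 stood at 541, 552 and 378 CPM.

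Ccnd1 had another pattern, with the highest levels in neural and endothelial cells and a postnatal difference in muscle. Neural cells had 595 CPM at E15 and 107 CPM in pups in the esophagus and 581, 637 and 30.1 CPM in the stomach (E15 over pup 3.86). Endothelial cells of E19 had 859 CPM in the GE-SCJ and 893 CPM in the stomach. In GE-SCJ muscle Ccnd1 stood at 133, 123 and 14 CPM (3.08, 2.24 to 4.47) and in stomach muscle at 189, 211 and 21.5 CPM. Esophageal squamous cells had 94.7, 111, 45.5 and 116 CPM of Ccnd1, with the lowest value in the pup.

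Ccnd3 was near level in stomach stroma and in muscle of the stomach and GE-SCJ. It stood at 217, 216 and 224 CPM in stomach stroma (-0.06) and at 166, 136 and 202 CPM in stomach muscle. Its ratio in GE-SCJ muscle was -0.27. In esophageal muscle, with only 22 pup cells, Ccnd3 had its highest ratio of the 14 comparisons, 1.32. In esophageal squamous cells it was lower after birth, at 168, 126, 70.1 and 22.1 CPM (E15 over pup 1.23, 0.76 to 1.80). All 3 D-type cyclins were past the fold in esophageal squamous cells. There 1 of 12 mitosis genes was, beside 13.6% of all tested genes.

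**Figure D3:**
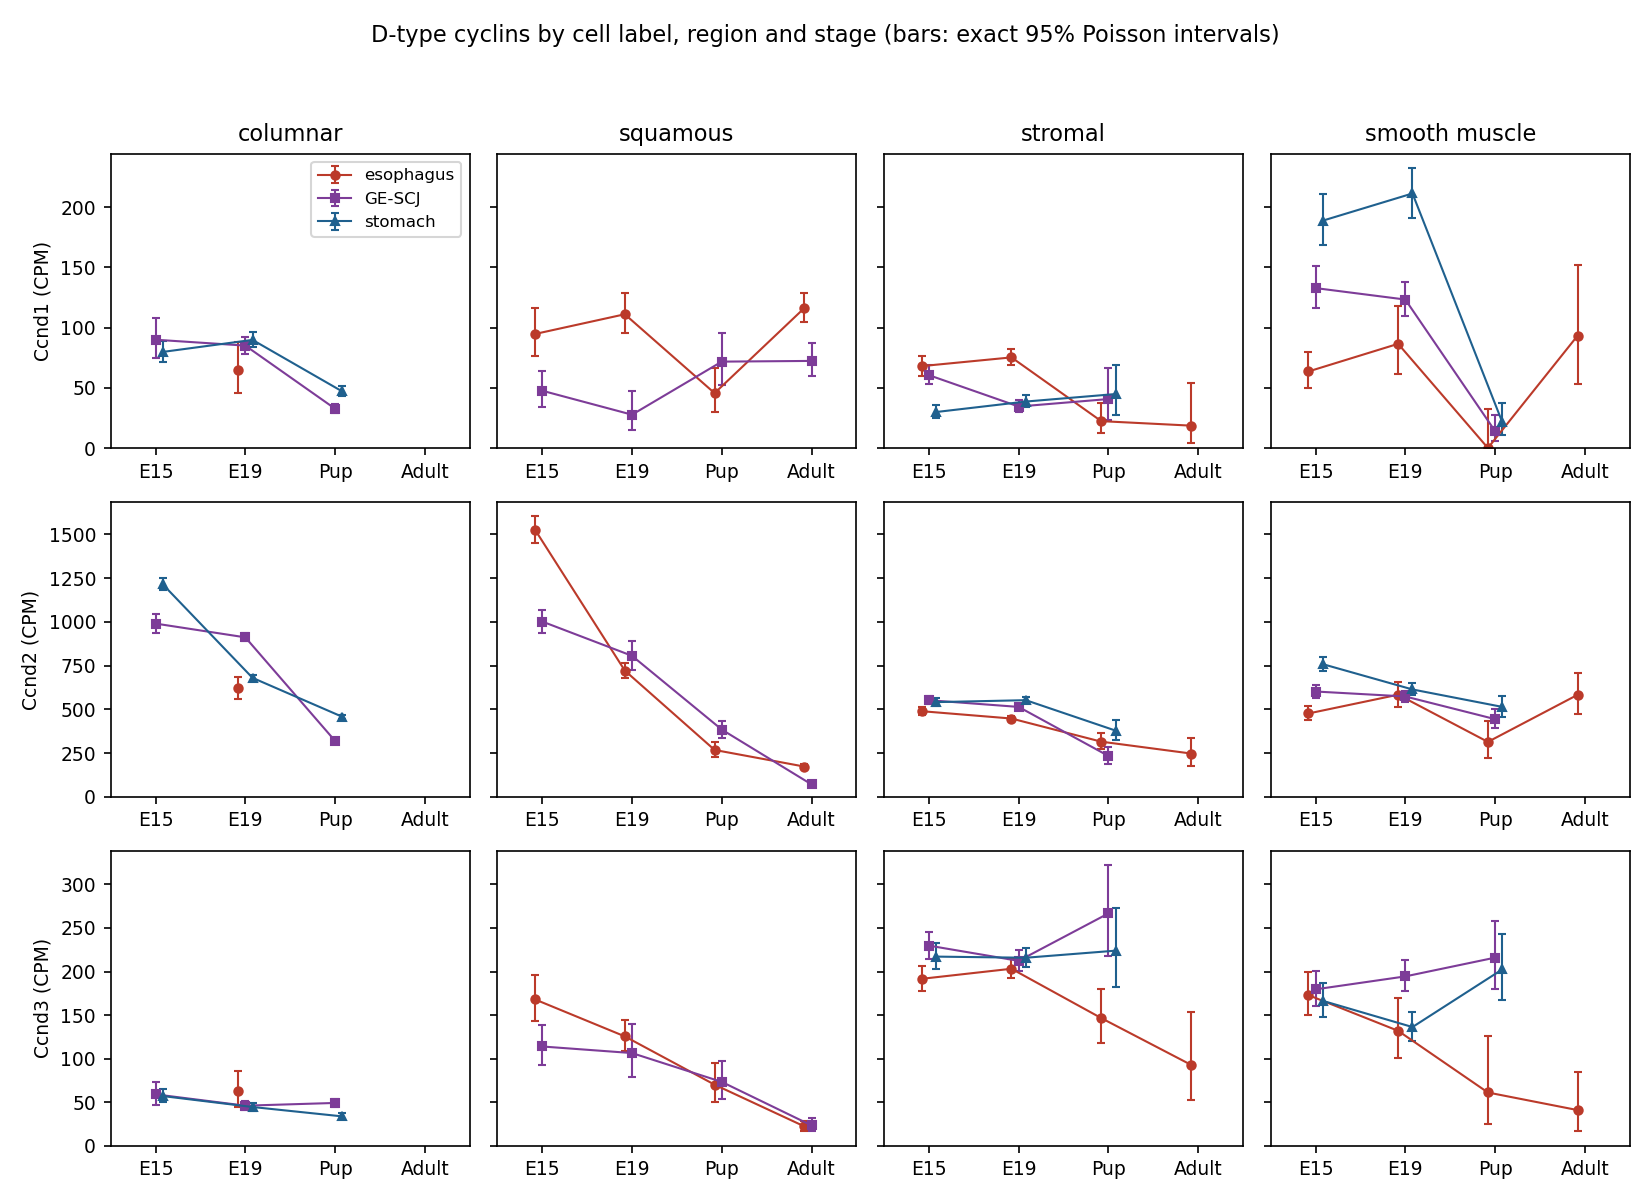
CPM of Ccnd1, Ccnd2 and Ccnd3 on linear axes by stage in columnar, squamous, stromal and smooth muscle cells, with 1 point per region in the region's colour and bars for exact 95% Poisson intervals. Ccnd2 in squamous cells of the esophagus descends from 1527 CPM at E15 to 173 CPM in the adult, and Ccnd3 in stomach stroma stays between 216 and 224 CPM.

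Smooth muscle of the esophagus and of the stomach differed at E15. The mitosis sum of esophageal smooth muscle was 1375 CPM against 3288 CPM in the stomach, a log2 ratio of -1.26 (-1.34 to -1.18), while replication differed less (749 and 961 CPM, -0.36, -0.48 to -0.24). Of the mitosis genes that passed, 16 of 19 were at least 2-fold lower in the esophagus, against 4% of all tested genes, and of the replication genes 0 of 11. Ccnb1 had -1.90, Nusap1, a spindle-assembly protein, -1.82 and Cenpf -1.66. Mki67 stood at 67.9 CPM in the esophagus and 186 CPM in the stomach and Top2a at 143 and 359.9 CPM. The 3 mitosis genes short of the fold were Ccnb2 (-0.47), Cdk1 (-0.71) and Aurkb, the passenger complex kinase (-0.82). Hemoglobin genes, which mark red blood cell RNA, summed to 3978 CPM in the esophageal and 6874 CPM in the stomach muscle, and their part was not tested.

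In muscle the region difference was also there at E19, where mitosis was -1.18 (-1.30 to -1.06) and replication -1.22 (-1.48 to -0.98) for esophagus over stomach. In esophageal muscle of E19 (42 cells) the leading cell of each list held 33.5% of the mitosis and 21.9% of the replication UMIs. Without that cell the sums were 918 and 265 CPM. Quotients of mitosis over replication in esophageal muscle, with all cells, were 1.84 at E15 and 4.07 at E19, against 3.42 and 3.94 in stomach muscle. The E15 esophageal muscle was thus the group whose replication level was near that of the other regions while its mitosis level was not. GE-SCJ and stomach muscle of E15 differed little (-0.07, -0.12 to -0.01).

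Stroma at E15 had a smaller region difference in the same direction. Esophagus over stomach gave -0.47 (-0.51 to -0.43) for mitosis and -0.24 for replication. At least 2-fold lower were 0 of 23 mitosis genes and 2.45% of all tested genes. Of the mitosis genes, 23 of 23 were below 0. Of all 19550 genes, 9622 were above 0, but genes without UMIs are counted there with a sign set by the group totals alone. The median of the 8450 tested genes was -0.11, so these too lay more often below 0. At E19 the mitosis and replication sums gave -0.87 (-0.91 to -0.83) and -0.68 (-0.74 to -0.63). Ccnd1 went the other way in E15 stroma, at 68.0 CPM in the esophagus and 29.9 CPM in the stomach (1.18, 0.86 to 1.52), and was the member past the fold there. Neural mitosis sums of E15 did not differ between these regions beyond counting error (-0.02, -0.09 to 0.04).

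To ask how many cells carried these transcripts, every cell was thinned to 5000 UMIs, which left 6673 cells and left out 1135 shallower ones. A cell with at least 5 of the 22 mitosis genes other than Stmn1 was called mitosis-positive, and one with at least 4 of the 14 replication genes replication-positive. Of the thinned cells 1341 (20.1%) were mitosis-positive, 1573 (23.6%) replication-positive and 700 both. Thus 52.2% of the mitosis-positive cells were replication-positive too, and 44.5% of the replication-positive ones mitosis-positive. The mitosis class was cut from a wide spread, with 2907 cells holding none of its genes, 890 holding at least 10 and 206 at 4 or 5 genes, next to the threshold. The replication class was less distinct, with 1054 cells at 3 or 4 genes. Both are ranges of a count rather than cell types, and no label here can be taken to lack dividing cells as a background. The second squamous label of the pup had 0 of 28 cells in either class, which allows a share of up to 10.7%. GE-SCJ stroma of the pup had 0 of 32 cells in either class, which allows up to 9.38%.

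In stomach columnar cells the mitosis-positive share was 40.3% at E15 (56 of 139, 32.1 to 48.9), 29.0% at E19 (100 of 345, 24.3 to 34.1) and 11.1% in the pup (38 of 341, 8.01 to 15), leaving out 1 shallower cell at E15 and 10 in the pup. Replication-positive shares were 45.3%, 24.3% and 6.45% (4.09 to 9.61). At each cell's own depth the same shares were 60.7%, 40.4% and 22.2% for mitosis and 84.3%, 67.5% and 40.5% for replication. The order of the stages was the same at either depth. GE-SCJ columnar cells had mitosis-positive shares of 40.4%, 28.9% and 11.3% and replication-positive shares of 46.2%, 23.3% and 5.28%.

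Squamous cells gave low replication-positive shares in the pup beside mitosis-positive shares near those of E15. In the esophagus 15.5% (9 of 58, 7.35 to 27.4), 13%, 10.6% (5 of 47, 3.55 to 23.1) and 28.1% (48 of 171, 21.5 to 35.4) of cells were mitosis-positive at E15, E19, pup and adult, with 61 adult cells left out as shallower. Replication-positive were 22.4%, 18.0%, 4.26% and 13.5% (53.1%, 38.3%, 10.7% and 22% at own depth). In the GE-SCJ 24.4% of cells at E15 (11 of 45) and 24.4% in the pup (10 of 41, 12.4 to 40.3) were mitosis-positive. Replication-positive cells there numbered 7 of 45 at E15 (15.6%) and 0 of 41 in the pup, which allows a share of up to 7.32%, against 44.7% and 15.9% at own depth. The squamous groups held at most 171 thinned cells, and their intervals are wide.

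Mesenchymal shares were near 0 in the pup. Stomach stroma had 23.4% mitosis-positive cells at E15 (76 of 325), 21.4% at E19 (132 of 618) and 2.27% in pups (1 of 44, with 34 left out), and 25.6%, 22.4% and 1.28% at own depth. In the GE-SCJ, 29.9% of stromal cells at E15 and 0 of 32 in the pup were positive, the latter allowing up to 9.38%, or up to 3.66% over all 82 cells at own depth. GE-SCJ muscle had 27.1% at E15 (35 of 129) and 0 of 43 in the pup, allowing up to 6.98%. The pup cells that pass the thinning are the deeper ones, since 117 of 151 cells of the esophageal stroma were left out there.

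**Figure D4:**
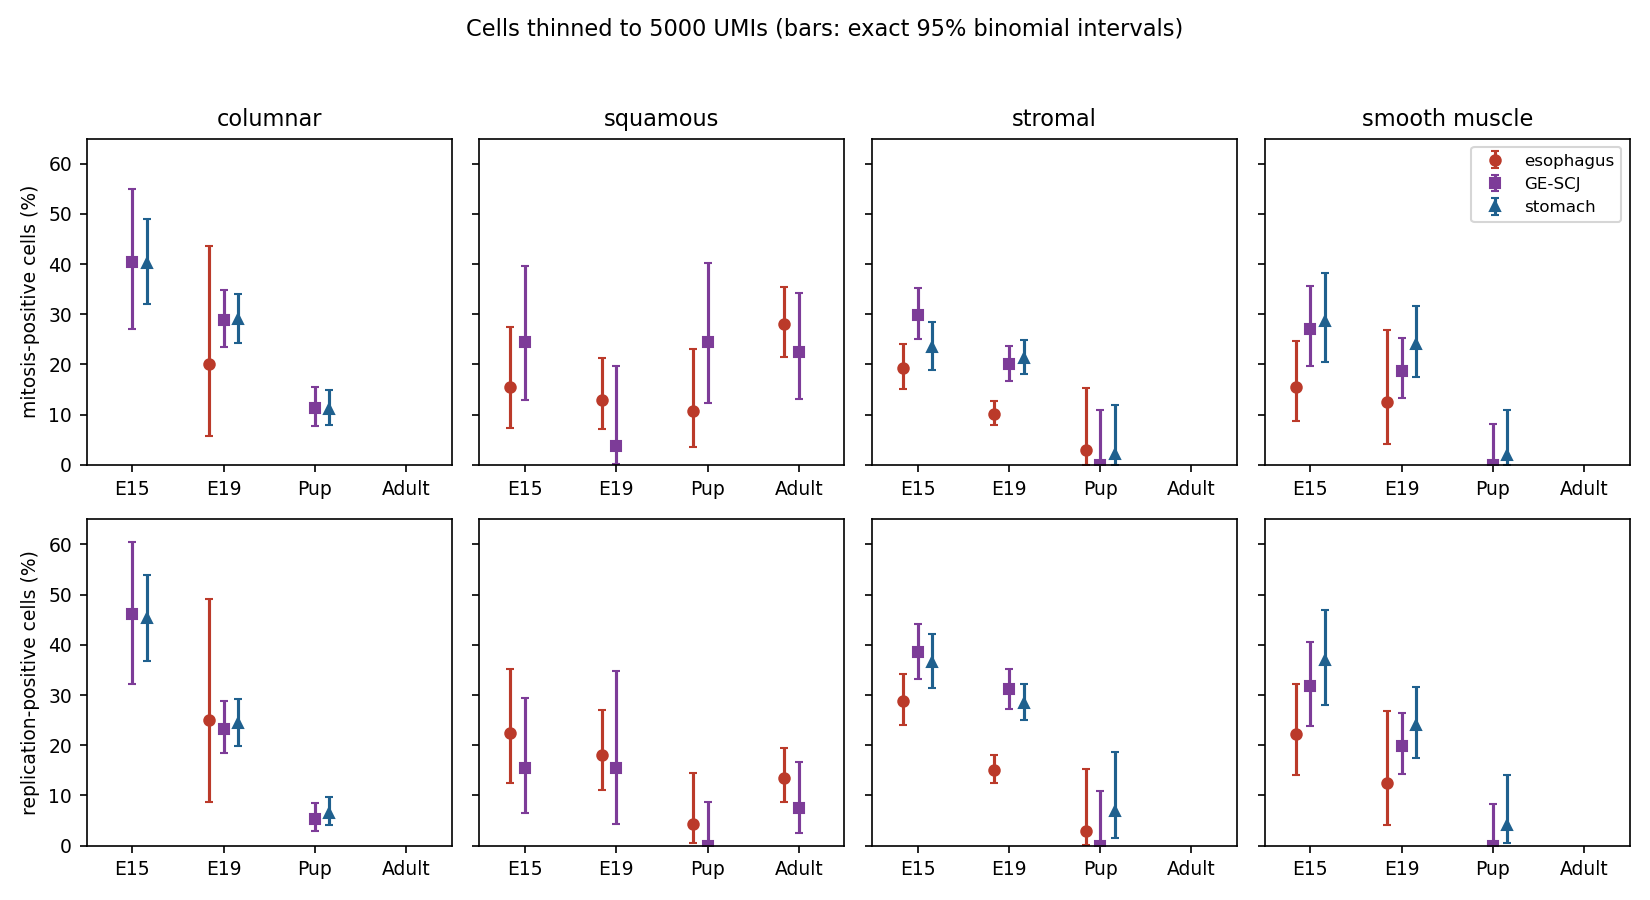
Percent of cells called mitosis-positive or replication-positive after thinning to 5000 UMIs, by stage and region, in columnar, squamous, stromal and smooth muscle cells, with bars for exact 95% Clopper-Pearson intervals. Columnar shares descend from 40.3% to 11.1% in the stomach for mitosis, while the GE-SCJ squamous share is 24.4% at both E15 and the pup.

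Stomach columnar cells had the transcripts of the mitosis list gathered in fewer cells than those of the replication list. There the top 10% of cells held 40.0% of the mitosis UMIs at E15, 58.7% at E19 and 78.6% in pups. For replication the values were 31.5%, 42.3% and 47.2%. Over all thinned cells, mitosis-positive cells (20.1% of cells) held 79.0% of Cdk1 UMIs and up to 95.9% of Nusap1 UMIs, which is how the class was made. Stmn1, which did not enter the definition, had 57.9% there and was seen in 97.0% of positive and 49.6% of other cells. By comparison Mki67 was seen in 78.2% and 4.35%.

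Replication genes, which also did not enter the definition of a mitosis-positive cell, differed in their shares, and not always by role. The nucleotide enzymes Rrm2, Tyms and Rrm1 had 66.9%, 60.2% and 56.8% of their UMIs in mitosis-positive cells, and Cdc45 55.2%. The helicase subunits lay between 26.5% (Mcm6) and 36.7% (Mcm5), with Mcm2 at 27.5%, Mcm3 at 30.3%, Mcm4 at 27.7% and Mcm7 at 34.9%. All 6 helicase genes thus had more of their UMIs in these cells than the cells' own share of 20.1%, and less than Rrm2 had. These shares pool all labels and stages, and the part of that mix was not tested. In columnar cells of E15, 79 of 199 cells were positive and held 47.1% of the replication UMIs. Per cell of 5000 UMIs, Mcm5 averaged 0.309 UMIs in positive and 0.134 in other cells, and Mcm6 0.412 and 0.287. Pcna had 39.2%, Cdc6 39.7%, Gins2 40.2% and Cdt1 28.9%. Rrm2 was seen in 35.2% of positive and 5.83% of other cells, Mcm6 in 28.5% and 21.1%.

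Of the cyclins, Ccne2 had 50.9% and Ccne1 36.7% of UMIs in mitosis-positive cells, again over all labels and stages. Their sum averaged 0.530 UMIs per 5000 in positive and 0.168 in other cells. In columnar cells of E15 it averaged 0.278 and 0.358, so not every group had more in the positive cells. Ccnd1 stood at 20.9%, Ccnd3 at 16.65% and Ccnd2 at 13%, at or below the share of cells. Per 5000 UMIs, Ccnd2 averaged 1.73 UMIs in positive and 2.90 UMIs in other cells. D-type cyclins act before the replication genes in the cycle. Over the pool of labels and stages their summed transcripts were not enriched in mitosis-positive cells, at 2.93 UMIs per 5000 against 4.24 in other cells. In columnar cells of the pup their sum averaged 2.77 and 2.26, so not every group had less in the positive cells.

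**Figure D5:**
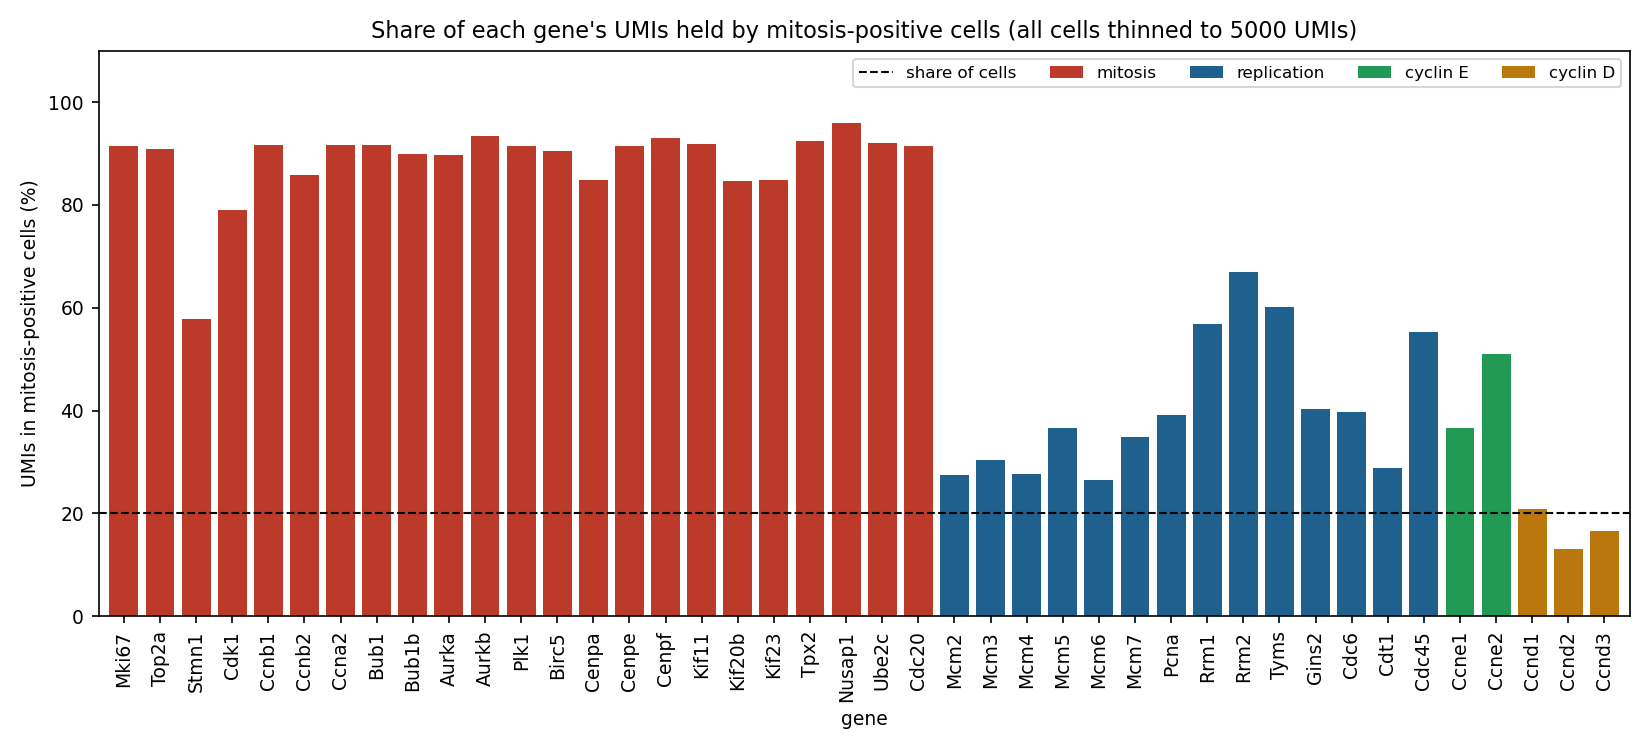
Percent of each gene's UMIs that lay in mitosis-positive cells after thinning to 5000 UMIs, with 1 bar per gene coloured by list and a dashed line at the share of cells that were positive, 20.1%. Mitosis genes other than Stmn1 defined the class, helicase genes lie between 26.5% and 36.7%, Rrm2 is at 66.9%, and Ccnd2 and Ccnd3 lie below the line.

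Within mitosis-positive columnar and squamous cells the amount of mitotic RNA was similar between stages. Over all labels, positive cells averaged 36.3, 35.9, 24.6 and 38.4 mitosis UMIs per 5000 from E15 to adult. Columnar positive cells averaged 26.6 mitosis UMIs per 5000 at E15, 24.8 at E19 and 22.7 in pups, and the other columnar cells 2.64, 1.54 and 0.722. Squamous positive cells averaged 37.1, 41.9, 31.3 and 38.7 from E15 to adult. Because a threshold on the same genes made the class, these averages describe it. The replication UMIs of the columnar cells not called mitosis-positive went from 4.58 per 5000 at E15 through 2.50 to 0.856 in the pup, and those of the positive ones from 6.20 through 4.88 to 3.59. Squamous positive cells averaged 4.55, 3.43, 2.82 and 3.51 replication UMIs and other squamous cells 2.51, 2.10, 1.07 and 1.27. In the pup these averages were below those of E15 and E19 in columnar and in squamous cells, whereas the adult squamous positive cells were near the E19 value.

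Other genes of the same pathways were taken from lists chosen with earlier results of these data known, so their counts are a description. In stomach columnar cells, where 19% of all tested genes were at least 2-fold higher at E15 than in the pup, 26 of 28 other replication genes that passed were, led by Uhrf1 (89.3 to 9.72 CPM, 3.19), Dtl (3.17) and Exo1 (2.90), and 29 of 29 other mitosis genes were, led by Kif2c (2.60), Ckap2l (2.60) and Cdca8 (2.49). Uhrf1 maintains DNA methylation at the fork and Kif2c depolymerises microtubules. Of 14 E2F, RB and division transcription factors 7 were higher and 1 lower, with Mycn at 28.2 CPM at E15 and 1.49 CPM in pups (4.18), E2f3 at 2.73 and Foxm1, which drives the mitotic genes, at 2.06. The interphase kinase Cdk4 went from 315 to 77.7 CPM (2.02), Cdk2 had 1.10 and Ccnh 0.85.

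Inhibitors of cyclin-dependent kinases went both ways in stomach columnar cells, where 3 of 6 that passed were 2-fold lower at E15, against 8.97% of all tested genes, and 1 was 2-fold higher. Cdkn2b (p15) stood at 5.18 CPM at E15 and 91.2 CPM in pups (-4.07), Cdkn2a at 0.259 and 9.28 CPM (-4.18) and Cdkn1a (p21) at 75.6 and 199.996 CPM (-1.40). In stomach muscle Cdkn1a was at 18.8 CPM at E15 and 193 CPM in pups (-3.33) and Cdkn1b (p27) at -1.39, while Cdkn1c (p57) was higher at E15, at 712 and 306 CPM (1.21). In stomach stroma Cdkn1a had -1.72 and Cdkn1c 1.08. In esophageal squamous cells Cdkn1c stood at 392 and 94.6 CPM (2.03) and Cdkn1a at 0.40, so the p21 gene was not lower at E15 there.

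Few genes of these lists passed in squamous cells. In the GE-SCJ, where 11.4% of all tested genes were past the fold, 0 of 11 other mitosis genes that passed were past the fold (median -0.11) and 3 of 4 other replication genes were (median 1.38), with Hells, a chromatin remodeller, at 92.9 CPM at E15 and 24.4 CPM in pups (1.86), Slbp, the histone mRNA binding protein, at 1.44 and Nasp, a histone chaperone, at 1.31. In the esophagus, beside 13.6% of all tested genes, 1 of 10 other mitosis genes (Cks1b, 1.09) and 1 of 2 other replication genes (Nasp, 1.72) were. In esophageal muscle at E15, 8 of 19 other mitosis genes (median -0.96) and 0 of 12 other replication genes were 2-fold lower than in the stomach, against 4% of all tested genes.

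Genes outside the list with the pattern most like the members were found by Pearson's r of log2(CPM + 10) over the 55 groups. For the mitosis sum these included Hmgb2 (0.957), Racgap1 (0.953), Smc2 (0.931), H2afz (0.929), Knl1 (0.923), Cdca8 (0.920), Pclaf (0.914), Sgo2a (0.912) and Prc1 (0.911). For the replication sum they were Uhrf1 (0.95), Pclaf (0.934), Clspn (0.924), Syce2 (0.912), Hells (0.908), H2afz (0.899), Smc2 (0.897), Hmgn2 (0.896), Hist1h2ap (0.895) and Chaf1b (0.893). H2afz, Smc2 and Pclaf were on both lists.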

How the data were processed

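Single-cell RNA of tagged mouse tissue cells was deposited as a matrix of UMI counts per gene and cell, which the authors made with Cell Ranger 6.1.1 (per the submitters' processing notes) on mm10, together with a table of cell labels, tags and the percent of mitochondrial UMIs of each cell as the authors computed it. All 7808 deposited cells were used, with no further filter and no doublet removal, and the total of every cell was the same as the deposited total. Counts were summed over the cells of a label, region and stage with at least 20 cells, and CPM and ratios (1 UMI added to each sum, a fold of 2 for genes with at least 100 UMIs over both groups) were computed with exact 95% intervals in Python 3.11.15 with numpy 2.4.6, scipy 1.17.1 and pandas 2.3.3. Groups are single pooled samples of 143 to 1403 cells and 2302227 to 20070615 UMIs per region and stage. For shares of positive cells each cell was thinned to 5000 UMIs.

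The 42 genes, the other pathway lists and the cell type markers were chosen with earlier results of these data known. Genes were named from the 3 highest and 3 lowest ratios of each list and a set of standing examples (Mki67, Top2a, Stmn1, Cdk1, Ccnb1, Pcna, Mcm2, Mcm5, Mcm6, Rrm2, Tyms and the cyclins), and genes of the other lists by the 3 largest absolute ratios. Not every comparison names all of these, so a gene left unnamed need not lie in the middle of its list. A few more members were named after their values were seen. Promoter words were searched in RefSeq sequences of GRCm38.p6. The ratio and interval code was tested on simulated data. Alternatives were equal weight for each cell, another library size, filters on cells and genes, other folds, depths and thresholds. 1 item among the genes most like the mitosis sum is not reported here.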

Additional observations from a re-analysis of the deposited data

Results flagged for a closer look

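In 3 cases the same difference between stages went opposite ways in 2 regions. Each region and stage is 1 pooled sample, so the difference between the regions was not tested. In squamous cells the mitosis sum of adult over pup had a log2 ratio of 0.18 (0.08 to 0.28) in the esophagus and -0.72 (-0.82 to -0.63) in the GE-SCJ, and both values changed sign under at least 1 other way of processing.

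In immune cells the mitosis sum of E19 over E15 had a log2 ratio of 0.35 (0.23 to 0.47) in the GE-SCJ and -0.65 (-0.75 to -0.56) in the stomach. The replication sum of immune cells in the pup over E15 had a log2 ratio of 0.53 (0.28 to 0.80) in the esophagus and -1.76 (-2.19 to -1.38) in the GE-SCJ. These immune groups held from 25 to 76 cells. Hemoglobin genes stood at 35237 and 21466 CPM at E15 and E19 in the GE-SCJ and at 12943 and 314 CPM in the stomach, and at 343 and 478 CPM at E15 and in pups in the esophagus, and their part was not tested.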

How the results depend on the processing

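No paired analysis was possible because each region and stage is 1 pooled sample, and for the same reason no replicate could be left out. Of the members' ratios of E15 over pup, 561 of 588 lay within their main interval when each cell weighed equally, 584 of 588 with another library size and 506 of 546 without the 1% of cells with the most member UMIs, and none whose interval left out 0 changed sign. Weighing cells equally gave 0.11 for the GE-SCJ squamous mitosis ratio of adult over pup (-0.72 in the report). The esophageal one (0.18) was -0.12 with library sizes counted without genes of mitochondria, ribosomal proteins and hemoglobin and -0.12 without adult cells with fetal gene levels, the latter chosen after seeing the data. Without the 1% of cells the replication ratio of columnar over stromal cells in the stomach pup was 0.0092 (-0.80), and in cells whose marker class was their label the esophageal immune mitosis ratio was -0.13 (0.48). The GE-SCJ squamous mitosis ratio of E15 over pup (0.26) was 0.04, 0.01 and 0.05 with the other library size, in marker-matched cells and without Stmn1. The cause was not tested.

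Counts of members 2-fold higher at E15 depended on the minimum of UMIs, by construction. With at least 50 UMIs they were 17, 35, 9, 7, 26, 30, 4 and 4 in muscle of the esophagus and stomach, squamous cells of the esophagus and GE-SCJ, neural cells of the esophagus and stomach, and immune cells of the esophagus and GE-SCJ, against 4, 22, 5, 4, 12, 15, 0 and 2. With no minimum they were 27, 39, 16, 15, 33, 36, 9 and 35 in this order, and 40 in GE-SCJ muscle (25). At 1.5-fold esophageal squamous cells had 10, and 10 members were lower in esophageal than stomach stroma at E15 (0). The share of all genes past each of these looser cuts is not given. These counts therefore show how the cuts move them and are not read against a background. The other library size left 2 in esophageal squamous cells, and lists without Stmn1 and Pcna left 2 in GE-SCJ squamous and 1 in GE-SCJ immune cells. Equal weights gave 1 in esophageal immune cells, and leaving out the 1% of cells or keeping marker-matched cells gave 1 in GE-SCJ immune cells.

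Shares of positive cells depended on depth and threshold. Thinned to 2000 UMIs, mitosis-positive shares were 27.1% and 6.90% in stomach columnar cells at E15 and in the pup (40.3% and 11.1% at 5000), 12.8% in GE-SCJ squamous (24.4%) and 16.2% in stomach stromal cells at E15 (23.4%), and replication-positive shares 16.4%, 0.862%, 2.13% and 12.3% (45.3%, 6.45%, 15.6% and 36.6%) and 4.33% in adult esophageal squamous cells (13.5%). At own depth mitosis gave 60.7% and 22.2% in columnar cells, and replication 84.3%, 40.5%, 44.7% and 52.5% in the same 4 groups, 22% in adult squamous and 15.9% in GE-SCJ squamous pup cells (0). At least 3 mitosis genes gave 51.1% in columnar and 28.9% in stromal cells at E15, and at least 8 gave 7.62% in columnar pup, 18.5% in stromal E15 and 0 in stromal pup cells. At least 2 replication genes gave 72.7%, 21.7%, 37.8% and 67.1% in the 4 groups, 32.7% in adult squamous, 26.8% in GE-SCJ squamous pup and 22.7% in stromal pup cells. At least 6 gave 26.6%, 1.17% and 21.5% in columnar E15, columnar pup and stromal E15 cells and 5.85% in adult squamous cells. In columnar and stromal cells E15 stayed above the pup under each of these settings. Leaving out pup and adult cells with fetal gene levels left under 20 cells for 7 of the 16 counts.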
